A study of Homo sapiens with 3 samples.

Results

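Clone 174, a line grown from edited HEK293 cells with a partial knockout of KANK1, was compared with unedited HEK293 cells. HEK293 is an adherent cell line that was derived from human embryonic kidney. The comparison used 2 of the 3 libraries of the study, 1 of clone 174 and 1 of the control, and gives clone 114, the other edited clone, beside them. Clones 174 and 114 have the genotype partial KANK1-KO and the treatment genome editing, done by lipid transfection of a plasmid for Cas9 and a guide aimed at the start of the KANK1 coding sequence. The control has the genotype control and no treatment, and all 3 cultures were grown in DMEM with fetal bovine serum. Messenger RNA was given as FPKM, fragments scaled to the length of the transcript and the size of the library. Of 26209 gene symbols, 12473 averaged 1 FPKM or more over the clone 174 and control libraries, and these genes are the ones described. The change of a gene is the log2 of its FPKM plus 1 in clone 174, minus the same in the control. With 1 library in each group there is no replicate check, no test and no error for any single difference. Clone 174 is 1 clone, so the effect of the edit and the clone's own descent cannot be told apart.

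KANK1 encodes a scaffold protein that joins adhesion sites at the cell cortex to the machinery that captures microtubule ends. The title of the study asks whether a reduced dose of this gene is linked to centrosome defects. Lines derived from HEK293 are known to carry an unstable set of chromosomes, so that clones of the line can differ in many genes. Large gene families also sit in clusters on chromosomes, such as the zinc finger genes of chromosome 19 and the core histone genes of chromosome 6.

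The 3 libraries were of similar size. Summed FPKM were 492750 in clone 174, 462950 in clone 114 and 530251 in the control, and 12434 genes in clone 174, 12573 in clone 114 and 12330 in the control reached 1 FPKM. From the spacing of the lowest values, 1 fragment on a transcript of 1 kb was worth an estimated 0.0587 FPKM in clone 174, 0.0595 in clone 114 and 0.0612 in the control. In the control that estimate rests on 252 low genes. A separate ratio of low values to those of the control put 1 fragment at 0.960 of its control value in clone 174 and 0.972 in clone 114. That ratio rests on 1733 low genes in clone 174 and 1676 in clone 114. Of 8 markers of HEK293 cells, 6 passed the filter, with VIM, the intermediate filament gene, at 201 FPKM in clone 174, 445 in clone 114 and 523 in the control. At a limit of 1.5-fold, 2 of the 6 were higher in clone 174 (LHX1 and HOXD11) and 2 lower (VIM and EYA1). None of 11 blood cell, 6 endothelial or 6 hepatocyte markers passed, and their summed levels lay between 0.10 and 0.79 FPKM in clone 174, between 0.13 and 0.46 in clone 114 and between 0.20 and 0.62 in the control. Of 7 fibroblast markers only COL1A1 passed, and COL1A2 was listed at 0 in all 3 libraries. KANK1 itself was at 3.43 FPKM in clone 174, 3.63 in clone 114 and 4.49 in the control, a change of -0.31 in clone 174. KANK2, its most abundant relative here, was at 8.92 FPKM in clone 174, 14.8 in clone 114 and 7.94 in the control. An edited transcript is still counted, so this value does not check the edit.

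Most genes lay close to the control. In clone 174, 10830 genes (86.8%) were within 1.5-fold of the control, 254 (2.04%) were higher by 2-fold or more and 200 (1.6%) lower by as much. Clone 114, which shares the control, had 177 of the same genes (1.42%) higher and 185 (1.48%) lower by that measure. The counts of lists, families and chromosomes below are to be read beside these shares of clone 174, 2.04% and 1.6%. At 1.5-fold the shares over all genes were 5.92% higher and 7.26% lower in clone 174. Scaled to an equal sum of FPKM, clone 174 had 303 genes higher and 153 lower, so the higher share of the calls was 66.4% in place of 55.9%. The median change over all 12473 genes was -0.05 as deposited and 0.05 with that scaling. Many calls were genes near the detection limit in one library: 97 of the 254 higher genes were below 1 FPKM in the control, and 83 of the 200 lower genes were below 1 FPKM in clone 174. Among the lower genes 24 were listed at 0 in clone 174, and among the higher genes 7 were listed at 0 in the control, all 7 of them small RNA symbols. The change also varied with transcript GC content. In clone 174 the median was -0.02 in the tenth of genes with the lowest GC content, 38.6% at its median, and -0.18 in the tenth with the highest, 64.1%, against 0.04 and -0.07 in clone 114. The part of GC content in single differences was not tested.

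**Figure D1:**
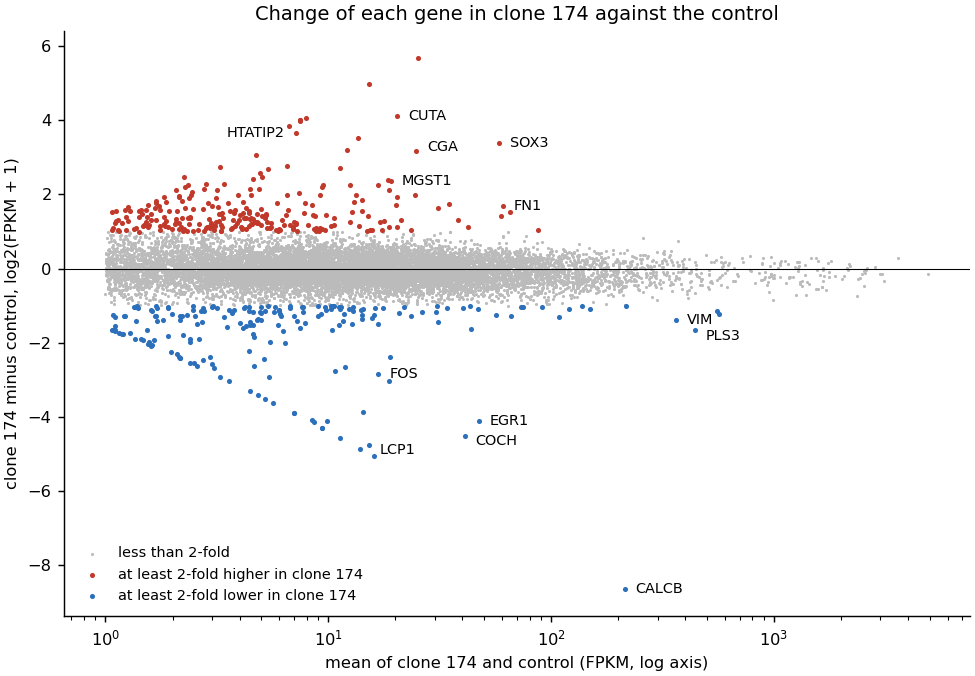
Each point is 1 of 12473 genes, with the mean FPKM of clone 174 and the control on a log axis across and the change on the log2(FPKM + 1) scale upward; red and blue points are at least 2-fold higher or lower in clone 174. CALCB stands alone at -8.64, and the slanted lower edge holds genes at or near 0 in clone 174.

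A few genes of signalling peptides and secreted regulators were among those with the lowest changes in clone 174. CALCB encodes a calcitonin gene-related peptide, a neuropeptide that widens blood vessels. It was at 0.070 FPKM in clone 174, 40.8 in clone 114 and 427 in the control, the lowest change of all genes at -8.64. RAMP1, which encodes a subunit of the receptor of that peptide, was listed at 0 in clone 174, against 5.99 FPKM in clone 114 and 10.4 in the control. Peptide and receptor subunit were thus both at or near 0 in clone 174 alone. GAL, the gene of the neuropeptide galanin, was listed at 0 in clone 174, against 36.0 FPKM in clone 114 and 9.66 in the control. PTN, the gene of the heparin-binding growth factor pleiotrophin, was also listed at 0 in clone 174, against 1.10 FPKM in clone 114 and 4.80 in the control. An exact 0 can be a failed estimate, so no fold is given for such genes. Over 9 neuropeptide genes past the filter, 2 were at least 1.5-fold lower (CALCB and GAL) and 2 higher (NTS and PTHLH), and the median of -0.08 turned sign under equal-sum scaling. SFRP2, a secreted antagonist of Wnt proteins, was at 0.033 FPKM in clone 174, 7.83 in clone 114 and 17.2 in the control. In the list of Wnt pathway genes 3 of 34 were at least 2-fold lower and 1 higher. Besides SFRP2 the lower genes were WNT5A and DKK3. WNT5A, a ligand of non-canonical Wnt signalling, was at 1.92 FPKM in clone 174, 9.10 in clone 114 and 7.31 in the control. DKK3, of the Dickkopf family of secreted proteins, was at 0.642 FPKM in clone 174, 5.26 in clone 114 and 2.60 in the control. WNT3A, a canonical ligand, was higher, at 2.23 FPKM in clone 174, 0.150 in clone 114 and 0.508 in the control. The whole list had a median change of -0.03, close to the median of all genes, and its sign turned with equal-sum scaling.

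Actin-bundling and filament genes differed in several members. LCP1 encodes plastin 2, an actin bundler best known from white blood cells, and was at 0.164 FPKM in clone 174, 46.3 in clone 114 and 30.1 in the control. PLS3, the gene of the related plastin 3, was at 211 FPKM in clone 174, 566 in clone 114 and 670 in the control, a change of -1.66. SCIN, which encodes an actin-severing protein, was at 2.55 FPKM in clone 174, 19.7 in clone 114 and 21.2 in the control. All 3 were lower in clone 174 than in either other library. Of 34 genes of the actin list, however, only LCP1 and PLS3 were at least 2-fold lower, and the list's median was -0.16. MAP7D2, which encodes a microtubule-associated protein, was at 0.149 FPKM in clone 174, 21.3 in clone 114 and 5.86 in the control. Of 14 intermediate filament and keratin genes, 3 were at least 2-fold higher and 2 lower, where 2.04% of all genes were higher and 1.6% lower. INA, a neuronal filament gene, was at 22.3 FPKM in clone 174, 9.93 in clone 114 and 7.79 in the control. NES, the gene of the progenitor filament nestin, was at 3.93 FPKM in clone 174, 1.13 in clone 114 and 0.883 in the control. The 2 lower filament genes were VIM, with a change of -1.38, and KRT19, at 1.29 FPKM in clone 174, 39.6 in clone 114 and 4.07 in the control.

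Matrix genes differed in both directions. COL2A1, the gene of the main cartilage collagen, was at 0.050 FPKM in clone 174, 93.6 in clone 114 and 16.8 in the control. COL14A1, a collagen that associates with fibrils, was listed at 0 in clone 174, against 8.23 FPKM in clone 114 and 4.34 in the control. COCH, which encodes a secreted protein best known from the inner ear, was at 2.54 FPKM in clone 174, 97.9 in clone 114 and 79.3 in the control. Clone 174 lay far below both other libraries for these 3 genes. FN1, the gene of fibronectin, was higher instead, at 93.2 FPKM in clone 174, 32.0 in clone 114 and 28.3 in the control. NID2, a basement membrane linker, was at 1.53 FPKM in clone 174, 9.06 in clone 114 and 7.63 in the control. Over 18 interstitial matrix genes the median change was 0.17, with 1 at least 2-fold higher and 2 lower, and over 21 basement membrane genes it was -0.03, with 2 higher and 1 lower. The sign of the basement membrane median turned with equal-sum scaling.

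The immediate early genes EGR1 and FOS were low in clone 174. EGR1, a zinc finger transcription factor gene that is switched on within minutes of a growth signal, was at 4.33 FPKM in clone 174, 13.6 in clone 114 and 90.6 in the control. FOS, which encodes a subunit of the AP-1 transcription factor, was at 3.39 FPKM in clone 174, 4.25 in clone 114 and 30.1 in the control. Both were low in both clones, with the lower value in clone 174. The CArG box, the site bound by serum response factor, occurs as a pair in the 250 bases upstream of EGR1, which are shown here because EGR1 had the largest difference of the immediate early list. Sequences are those of RefSeq on GRCh38.p14, written in the direction of transcription. The stretch below is chr5:138465229-138465478 on the plus strand, with the 2 CArG boxes in capitals, and they begin 105 and 83 bases before the annotated start.
EGR1: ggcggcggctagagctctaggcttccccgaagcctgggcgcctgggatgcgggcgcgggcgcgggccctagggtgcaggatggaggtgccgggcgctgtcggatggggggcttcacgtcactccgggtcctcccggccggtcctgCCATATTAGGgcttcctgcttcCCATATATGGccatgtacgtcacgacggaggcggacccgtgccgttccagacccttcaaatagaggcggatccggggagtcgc
On both strands, since the motif reads alike on each, 312 of 27305 such windows (1.14%) held at least 1 CArG box and 9 held 2 or more. Of 32 immediate early and ERK feedback genes with a window, EGR1 and SRF itself held 2 each, and the other windows held none. SRF was at 24.4 FPKM in clone 174, 17.9 in clone 114 and 24.6 in the control, a change of -0.01 in clone 174. Only exact matches within the 250 bases were counted, so boxes further upstream or with a mismatch would be missed. A match in a window is a description of its letters, and no binding was measured.

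The ERK feedback list was lower over most of its members. These genes are induced by growth factor signalling through the kinase ERK, and many of them damp it in turn. Their median change was -0.55 in clone 174 and 0.03 in clone 114, where the medians of all genes were -0.05 in clone 174 and -0.02 in clone 114. Of 19 genes past the filter, 8 were at least 1.5-fold lower in clone 174 and 0 at least 1.5-fold higher, while 7.26% of all genes were at least 1.5-fold lower and 5.92% at least 1.5-fold higher. The 4 genes with the lowest changes were 3 ETS transcription factor genes and DUSP2. ETV4 was at 1.54 FPKM in clone 174, 6.89 in clone 114 and 6.72 in the control. ETV5 was at 1.01 FPKM in clone 174, 6.70 in clone 114 and 4.42 in the control. ETV1 was at 0.751 FPKM in clone 174, 5.01 in clone 114 and 3.57 in the control. Each of the 3 was lower in clone 174 than in both other libraries. DUSP2, which encodes a phosphatase of MAP kinases, was at 0.867 FPKM in clone 174, 5.63 in clone 114 and 4.27 in the control. DUSP6, the ERK phosphatase gene, differed little, at 3.30 FPKM in clone 174, 4.55 in clone 114 and 3.68 in the control. Of 25 immediate early genes, 7 were at least 1.5-fold lower in clone 174 and 3 higher. Their median change was -0.20 in clone 174, with a 95% interval over genes of -0.56 to 0.05, and -0.30 in clone 114. The highest of them was CTGF, a secreted matricellular factor and target of YAP, at 7.84 FPKM in clone 174, 2.36 in clone 114 and 3.14 in the control.

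Growth factor receptors and cell cycle inhibitors differed in a few members. MET, the receptor gene of hepatocyte growth factor, was at 8.49 FPKM in clone 174, 33.3 in clone 114 and 19.6 in the control. ERBB3, the gene of a receptor for neuregulins, was higher, at 10.4 FPKM in clone 174, 2.17 in clone 114 and 2.80 in the control. The receptors thus differed in opposite directions. CDKN2A, which encodes the inhibitor p16 and the p53 activator ARF, was at 76.6 FPKM in clone 174, 201 in clone 114 and 163 in the control. Its neighbour CDKN2B, the gene of the inhibitor p15, was at 4.12 FPKM in clone 174, 13.5 in clone 114 and 9.33 in the control. Both inhibitor genes were lower in clone 174 than in either other library, and they were the only 2 of 48 genes of G1 and S phase at least 2-fold lower.

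The genes with the highest changes included regulators of embryonic cells. SOX3, a transcription factor of neural progenitors, was at 107 FPKM in clone 174, 1.27 in clone 114 and 9.36 in the control. SOX11, of the same family and also known from neural progenitors, was at 4.34 FPKM in clone 174, 0.119 in clone 114 and 0.419 in the control. Both were high in clone 174 alone, whereas the other 9 SOX genes past the filter were all under 2-fold. CGA, which encodes the alpha subunit shared by the glycoprotein hormones, was at 45.4 FPKM in clone 174, 4.43 in clone 114 and 4.13 in the control. Several neuronal genes stood with them. PCSK2, a protease gene of prohormone processing, was at 4.003 FPKM in clone 174, 0.040 in clone 114 and 0.416 in the control. GAP43, a growth cone gene, was at 3.26 FPKM in clone 174, 0.118 in clone 114 and 0.849 in the control. In the list of 22 neuronal genes, 3 were at least 2-fold higher (PCSK2, INA and GAP43) and 1 lower, PCSK1N, at 9.09 FPKM in clone 174, 16.05 in clone 114 and 22.8 in the control. The median of the list was 0.06, and of all genes 2.04% were at least 2-fold higher and 1.6% lower.

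Of the 254 genes at least 2-fold higher in clone 174, 97 were below 1 FPKM in the control. These 97 passed the filter only through clone 174, and some were also below 1 FPKM in clone 114. HTATIP2, which encodes an oxidoreductase linked to apoptosis, was at 14.1 FPKM in clone 174, 0.049 in clone 114 and 0.191 in the control. LTBR, the gene of the lymphotoxin beta receptor, was at 9.27 FPKM in clone 174, 0.032 in clone 114 and 0.237 in the control. RHOD, a small GTPase gene of endosome movement, was at 12.1 FPKM in clone 174, 0.063 in clone 114 and 0.909 in the control. Only clone 174 passed 1 FPKM for these 3 genes, which were named for their high changes, so this is a description. FABP5, which encodes a fatty acid-binding protein, was likewise at 6.39 FPKM in clone 174, 0.109 in clone 114 and 0.113 in the control. Genes of retinoic acid-binding proteins were present in all 3 libraries. CRABP1, which binds retinoic acid in the cytosol, was at 16.3 FPKM in clone 174, 2.34 in clone 114 and 2.62 in the control. Its relative CRABP2 was at 14.8 FPKM in clone 174, 34.8 in clone 114 and 4.74 in the control, so for this gene clone 114 was the highest.

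Some detoxifying and epithelial genes were among the higher ones. MGST1, a membrane-bound glutathione transferase, was at 32.6 FPKM in clone 174, 0.333 in clone 114 and 5.53 in the control. NQO1, a quinone reductase gene that NRF2 is known to drive, was at 22.7 FPKM in clone 174, 9.75 in clone 114 and 5.55 in the control. HMOX1, the gene of haem oxygenase, was at 58.5 FPKM in clone 174, 24.1 in clone 114 and 26.6 in the control. These 3 were the only genes of 30 in the oxidative stress list at least 2-fold higher, and the list's median was -0.03, with a sign that turned under equal-sum scaling. The glutathione transferase list, which does not hold MGST1, had 4 of 9 genes at least 1.5-fold lower and 0 higher. Its median was -0.35, with an interval over genes of -1.19 to 0.18 that holds 0. Summed over all 16 genes of the list, FPKM were not lower, at 795 in clone 174, 683 in clone 114 and 770 in the control. The most abundant lower member of the list, GSTZ1, was at 12.2 FPKM in clone 174, 30.3 in clone 114 and 29.3 in the control. Of 16 epithelial markers, 7 were at least 1.5-fold higher and 1 lower, where 5.92% of all genes were that much higher and 7.26% that much lower, with a median change of 0.30 in clone 174 and 0.21 in clone 114. EPCAM, the adhesion molecule gene of epithelia, was at 31.2 FPKM in clone 174, 23 in clone 114 and 6.35 in the control. SPINT2, the gene of a membrane protease inhibitor, was at 97.4 FPKM in clone 174, 46.1 in clone 114 and 33.0 in the control. For EPCAM and SPINT2 the 2 clones lay above the control. The 1 lower epithelial marker was ESRP2, at 5.80 FPKM in clone 174, 10.8 in clone 114 and 13.7 in the control. Of 12 mesenchymal markers, 2 were at least 2-fold higher (FN1 and CDH11) and 1 lower (VIM), with a median of -0.32. HSPB8, which encodes a small chaperone, was at 25.7 FPKM in clone 174, 9.46 in clone 114 and 1.32 in the control, while 1 of 19 heat shock genes, HSPB8 itself, was at least 2-fold higher.

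**Figure D2:**
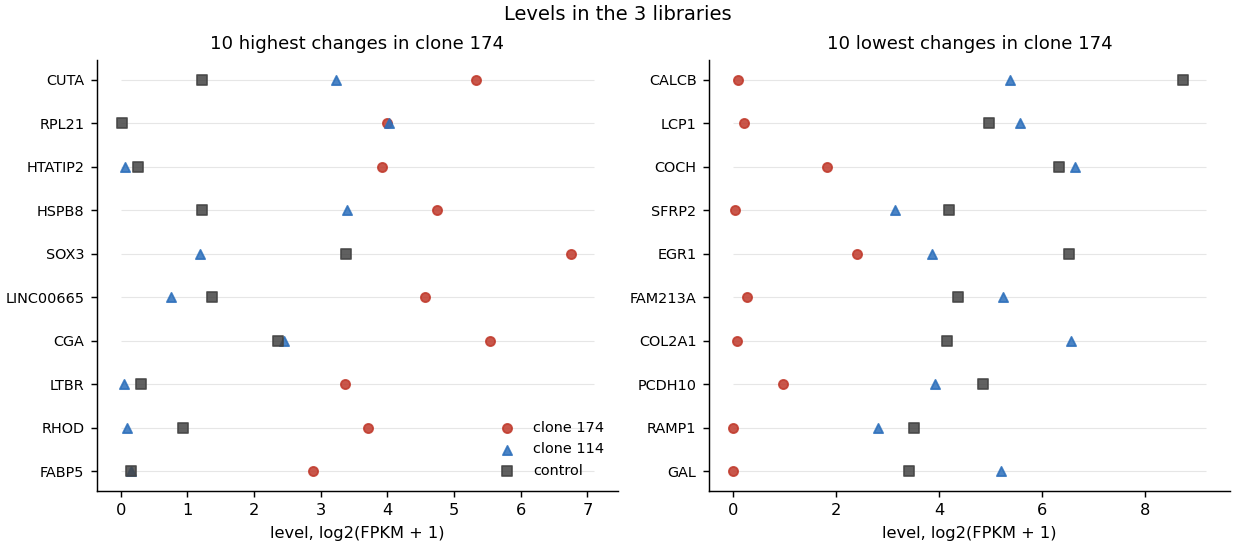
The levels of the 10 genes with the highest and the 10 with the lowest changes in clone 174, small RNA symbols left out, are drawn as log2(FPKM + 1) across, with 1 row for each gene and 1 point each for clone 174, clone 114 and the control. Clone 174 lies apart from both other libraries for genes such as SOX3, LTBR, LCP1 and COCH, and lies with clone 114 for RPL21.

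Caution applies to a few of these genes. RPL21, the gene of a ribosomal protein that every cell uses, was at 14.9 FPKM in clone 174, 15.3 in clone 114 and 0.014 in the control, and a value like that of the control can be a failed estimate. The same holds for CUTA, at 39.3 FPKM in clone 174, 8.35 in clone 114 and 1.32 in the control. ZNF667 and ZNF667-AS1 lie in antisense orientation to each other, and whether the counting used the strand is not given in the sources used here.

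Zinc finger genes of chromosome 19 formed the largest gene family among the higher genes. Most of them encode KRAB zinc finger proteins, which bind DNA, often at transposable elements, and recruit the corepressor TRIM28. By symbol, 206 ZNF genes of chromosome 19 passed the filter. Of these, 35 (17.0%) were at least 2-fold higher and 0 lower in clone 174, and 56 were at least 1.5-fold higher and 0 lower. The 35 became 7 with a pseudocount of 5 in place of 1 and 12 with a mean of at least 5 FPKM. The 35 genes made up 13.8% of all 254 higher genes. The median change of the 206 was 0.34, with a 95% binomial interval over genes of 0.28 to 0.41, and in clone 114 it was 0.02, with 6 genes at least 2-fold higher and 1 lower. On other chromosomes, 5 of 221 ZNF genes (2.26%) were at least 2-fold higher and 1 lower, with a median of 0.03. The 683 other genes of chromosome 19 had 24 higher (3.51%) and 5 lower, with a median of -0.04. These 683 include zinc finger and antisense genes with other symbols, such as ZIK1, ZSCAN18 and ZNF667-AS1, which were at least 2-fold higher. Both shares lay nearer to the 2.04% of all genes than the 17.0% of the ZNF genes of chromosome 19. The median transcript GC content of the 206 was 45.8%, against 49.7% over all genes. The split of ZNF genes by chromosome was made with their values known, and the interval covers the spread over genes only. ZNF genes share stretches of sequence, so reads can be assigned to the wrong copy.

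Levels of these genes were low. Over the 35 genes, clone 174 had between 2.01 and 25.5 FPKM with a median of 5.78, clone 114 between 0 and 9.89 with a median of 2.099, and the control between 0.167 and 11.1 with a median of 1.43. The 35 were chosen for being high in clone 174, so these levels are a description. In the control, 14 of them were below 1 FPKM, and these passed the filter only through clone 174. ZNF667 was at 9.18 FPKM in clone 174, 0.546 in clone 114 and 0.704 in the control. ZNF347 was at 4.38 FPKM in clone 174, 0.089 in clone 114 and 0.167 in the control. ZNF83 was at 16.05 FPKM in clone 174, 1.14 in clone 114 and 2.71 in the control. Each of the 3 was high in clone 174 alone. ZNF promoters are known to lie in CpG islands, where methylation of the CG dinucleotide silences genes, and the 250 bases upstream of these 3 genes are shown because they had the highest changes of the ZNF genes. They are RefSeq GRCh38.p14 sequences of the minus strand, from chr19:56477346-56477595, chr19:53159054-53159303 and chr19:52690497-52690746, with CG dinucleotides in capitals.
ZNF667: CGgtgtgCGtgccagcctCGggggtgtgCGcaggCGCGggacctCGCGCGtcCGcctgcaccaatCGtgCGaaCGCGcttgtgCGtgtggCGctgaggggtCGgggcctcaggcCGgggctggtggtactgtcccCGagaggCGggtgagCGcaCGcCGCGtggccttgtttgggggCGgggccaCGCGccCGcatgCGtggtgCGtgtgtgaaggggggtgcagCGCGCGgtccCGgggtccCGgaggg
ZNF347: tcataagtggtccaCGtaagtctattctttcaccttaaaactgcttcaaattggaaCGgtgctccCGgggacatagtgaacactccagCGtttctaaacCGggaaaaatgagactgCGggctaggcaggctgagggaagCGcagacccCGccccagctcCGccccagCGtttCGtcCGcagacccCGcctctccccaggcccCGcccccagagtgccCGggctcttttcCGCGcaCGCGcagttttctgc
ZNF83: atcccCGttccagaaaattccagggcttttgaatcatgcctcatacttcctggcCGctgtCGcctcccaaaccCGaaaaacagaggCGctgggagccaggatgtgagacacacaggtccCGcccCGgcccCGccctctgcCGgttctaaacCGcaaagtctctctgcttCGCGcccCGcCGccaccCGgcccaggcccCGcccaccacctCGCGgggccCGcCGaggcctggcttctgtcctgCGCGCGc
CG reads alike on both strands. The ZNF667 window held 35 CG dinucleotides, as many as or more than which 5.64% of 27305 such windows held. The ZNF83 window held 23, reached by 25.4% of windows, and the ZNF347 window held 19, reached by 34.3%, where the median window held 11. Methylation was not measured.

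The higher ZNF genes lay in clusters. The stretches below were drawn from these same clone 174 values, so their high counts and medians follow in part from that choice. In a stretch of 54 genes from C19orf81 to TSEN34 near the end of the long arm, 18 of 34 ZNF genes were at least 2-fold higher, with a median change of 1.05 in clone 174, against -0.01 in clone 114, while the other 20 genes had a median of 0.10. From ZNF600 to ZNF525, 11 neighbouring genes past the filter were all at least 1.5-fold higher, with a median change of 1.45 in clone 174 and -0.47 in clone 114. Among them, ZNF320 was at 7.90 FPKM in clone 174, 0.0905 in clone 114 and 0.992 in the control. A run of 6 genes from ZNF880 to ZNF83 had a median change of 1.77 in clone 174 and -0.10 in clone 114. Within it, ZNF528 was at 11.1 FPKM in clone 174, 2.12 in clone 114 and 2.05 in the control. Near the chromosome end, from ZNF581 to SLC27A5, 9 of 50 ZNF genes were at least 2-fold higher, with a median change of 0.40 in clone 174 and -0.20 in clone 114. In that stretch ZNF135 was at 5.78 FPKM in clone 174, 0.975 in clone 114 and 0.550 in the control. On the short arm, 5 of 17 ZNF genes from SWSAP1 to TNPO2 were at least 2-fold higher, with a median change of 0.49 in clone 174 and 0.27 in clone 114. ZNF700 there was at 4.24 FPKM in clone 174, 0.243 in clone 114 and 0.705 in the control.

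Not every cluster differed in this way. ZNF91, ZNF93 and ZNF253, named here after their values were seen, were higher in both clones. ZNF91, known to silence a family of retrotransposons, was at 8.5 FPKM in clone 174, 9.89 in clone 114 and 3.59 in the control. ZNF93 was at 7.02 FPKM in clone 174, 5.90 in clone 114 and 1.75 in the control. From ZNF565 to ZNF420, 0 of 14 ZNF genes were at least 2-fold higher, though 4 were at least 1.5-fold higher and 0 lower. Of the 7 other genes of that stretch, 4 were at least 2-fold higher. These 4 include the zinc finger gene ZFP82, with a change of 1.24, and the antisense gene ZNF790-AS1, with 1.095. Among them LINC00665, a long non-coding RNA gene, was at 22.7 FPKM in clone 174, 0.693 in clone 114 and 1.57 in the control. TRIM28, the corepressor gene, was at 286 FPKM in clone 174, 247 in clone 114 and 275 in the control. SETDB1, which encodes the histone methyltransferase that TRIM28 recruits, was at 22.1 FPKM in clone 174, 16.9 in clone 114 and 14.2 in the control.

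**Figure D3:**
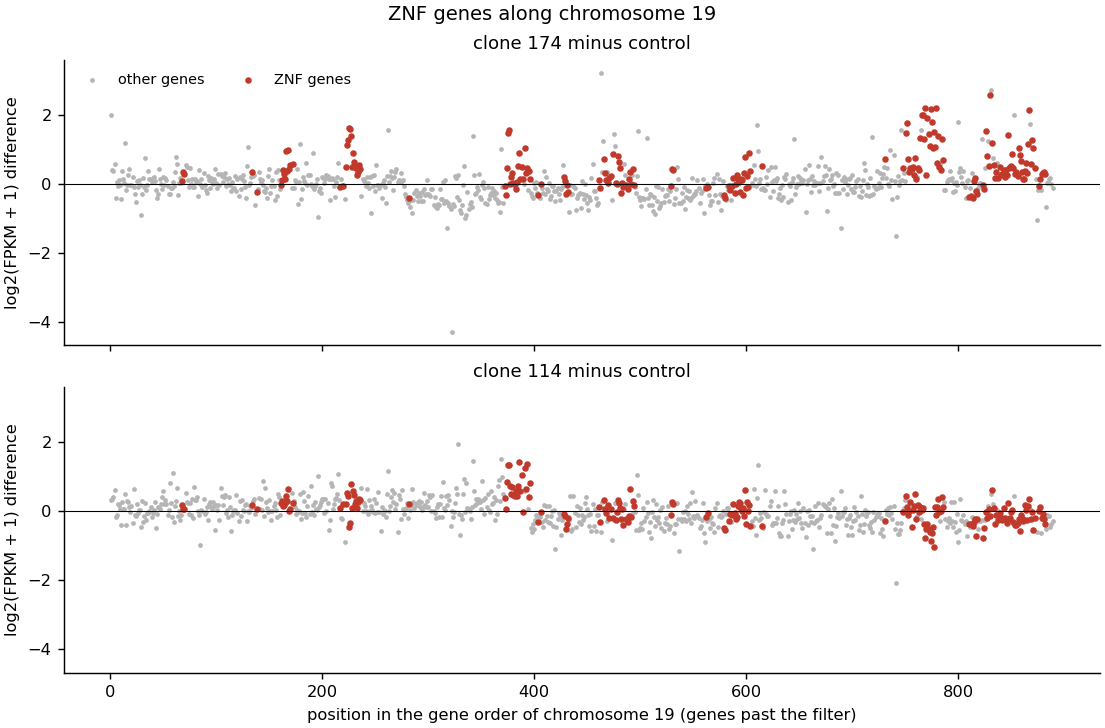
Genes of chromosome 19 past the filter are drawn in their RefSeq order across, with the change on the log2(FPKM + 1) scale upward, for clone 174 in the upper panel and clone 114 in the lower; ZNF genes are red and other genes grey. The red points of clone 174 reach above 1 in several clusters, with 35 at least 2-fold higher, against 6 in clone 114.

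Some histone and cadherin genes were also higher. Histone genes by symbol numbered 24 past the filter, of which 7 were at least 2-fold higher and 0 lower in clone 174, where 2.04% of all genes were higher and 1.6% lower by that measure. Their median change was 0.43 in clone 174, with a 95% interval over genes of -0.03 to 1.07, against -0.46 in clone 114. HIST1H2BD was at 6.19 FPKM in clone 174, 0.573 in clone 114 and 1.41 in the control. HIST1H2AC was at 5.90 FPKM in clone 174, 1.98 in clone 114 and 1.36 in the control. On chromosome 6 the 8 neighbouring genes from HIST1H3B to HIST1H4H were all at least 1.5-fold higher in clone 174, with a median of 1.253, against -0.29 in clone 114. The most abundant of them, the linker histone gene HIST1H1C, was at 100 FPKM in clone 174, 13 in clone 114 and 53.6 in the control. Most histone messages lack a poly(A) tail and the library was made from poly(A) RNA, so the levels cover only part of these transcripts, and near-identical copies can share reads.

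Cadherins join cells to one another through calcium-dependent contacts. By symbol, 8 cadherin genes passed the filter and had the highest median of 224 symbol families, 0.69 in clone 174 and -0.05 in clone 114, with a 95% interval over genes of -0.34 to 2.11 in clone 174, with 3 at least 2-fold higher and 0 lower. CDH8 was at 3.98 FPKM in clone 174, 0.0503 in clone 114 and 0.155 in the control. CDH11 was at 4.59 FPKM in clone 174, 0.390 in clone 114 and 1.23 in the control. CDH4 was at 7.82 FPKM in clone 174, 2.38 in clone 114 and 2.28 in the control. All 3 were at or below 2.38 FPKM outside clone 174, and CDH8 passed the filter only through clone 174. The most abundant member, CDH2 (N-cadherin), was at 41.2 FPKM in clone 174, 34.6 in clone 114 and 52.5 in the control, on the low side. Protocadherins, a related group of adhesion genes, had a median of -0.35. PCDH10 was at 0.973 FPKM in clone 174, 14.2 in clone 114 and 27.7 in the control, and PCDH17 at 2.27 FPKM in clone 174, 2.05 in clone 114 and 7.44 in the control. PCDH19 was higher instead, at 4.66 FPKM in clone 174, 0.578 in clone 114 and 0.848 in the control.

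Chromosome 14 was lower along its whole length. Of 412 genes past the filter on it, 390 lay below the control in clone 174, 134 were at least 1.5-fold lower and 4 at least 1.5-fold higher. Its median change was -0.47 with a 95% interval over genes of -0.50 to -0.44, against -0.09 in clone 114, and it was the lowest of all chromosomes in clone 174. Its genes had a median GC content of 48.2%, near that of all genes, and with changes centred on genes of like GC content the median was -0.43. Next in clone 174 came chromosome 21 at -0.29, chromosome 22 at -0.24 and chromosome 7 at -0.23, while clone 114 had 0.02 on chromosome 21, -0.10 on chromosome 22 and 0.38 on chromosome 7. In bulk RNA fewer cells with a transcript and less RNA per cell cannot be told apart, and no DNA copy number was measured. COCH, FOS, NID2 and GALC lie on chromosome 14, and GALC, the gene of a lysosomal galactosidase, was listed at 0 in clone 174, against 1.77 FPKM in clone 114 and 3.22 in the control. AKT1, a kinase gene of growth signalling near the end of the chromosome, was at 57.7 FPKM in clone 174, 77.5 in clone 114 and 113 in the control. NPC2, a carrier of lysosomal cholesterol, was at 57.8 FPKM in clone 174, 101 in clone 114 and 103 in the control. MTHFD1, an enzyme gene of folate metabolism, was at 73.6 FPKM in clone 174, 104 in clone 114 and 131 in the control.

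The position on chromosome 14 entered many of the function lists. Of 1185 genes of the lists past the filter, 35 lie on chromosome 14. All 35 were below the control in clone 174, 15 of them at least 1.5-fold lower, with a median of -0.48. The other 1150 had a median of -0.04, with 95 at least 1.5-fold higher and 97 lower. GSTZ1, PCK2, ACTN1, BMP4, WARS and IFT43 were each at the low end of their list and lie on chromosome 14. ACTN1, which encodes the actin crosslinker alpha-actinin 1, was at 29.1 FPKM in clone 174, 45.4 in clone 114 and 50.6 in the control. PCK2, a mitochondrial enzyme gene of the amino acid stress response, was at 6.62 FPKM in clone 174, 15.6 in clone 114 and 16.8 in the control. BMP4, a ligand gene of the BMP pathway, was at 3.36 FPKM in clone 174, 7.35 in clone 114 and 7.57 in the control.

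Other chromosomes were higher as a whole. Chromosome 2 had a median change of 0.24 over 824 genes in clone 174, against 0.01 in clone 114, with 72 genes at least 1.5-fold higher and 22 lower. Chromosome 12 had a median change of 0.22 over 653 genes in clone 174, against 0.03 in clone 114, with 64 higher and 11 lower. Of all genes, 5.92% were at least 1.5-fold higher and 7.26% lower in clone 174. Chromosome 11 had a median change of 0.17 in clone 174 and 0.05 in clone 114. Medians of chromosomes 1, 13, 15, 16 and 20 lay near 0 in clone 174, and their sign turned under another scaling.

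**Figure D4:**
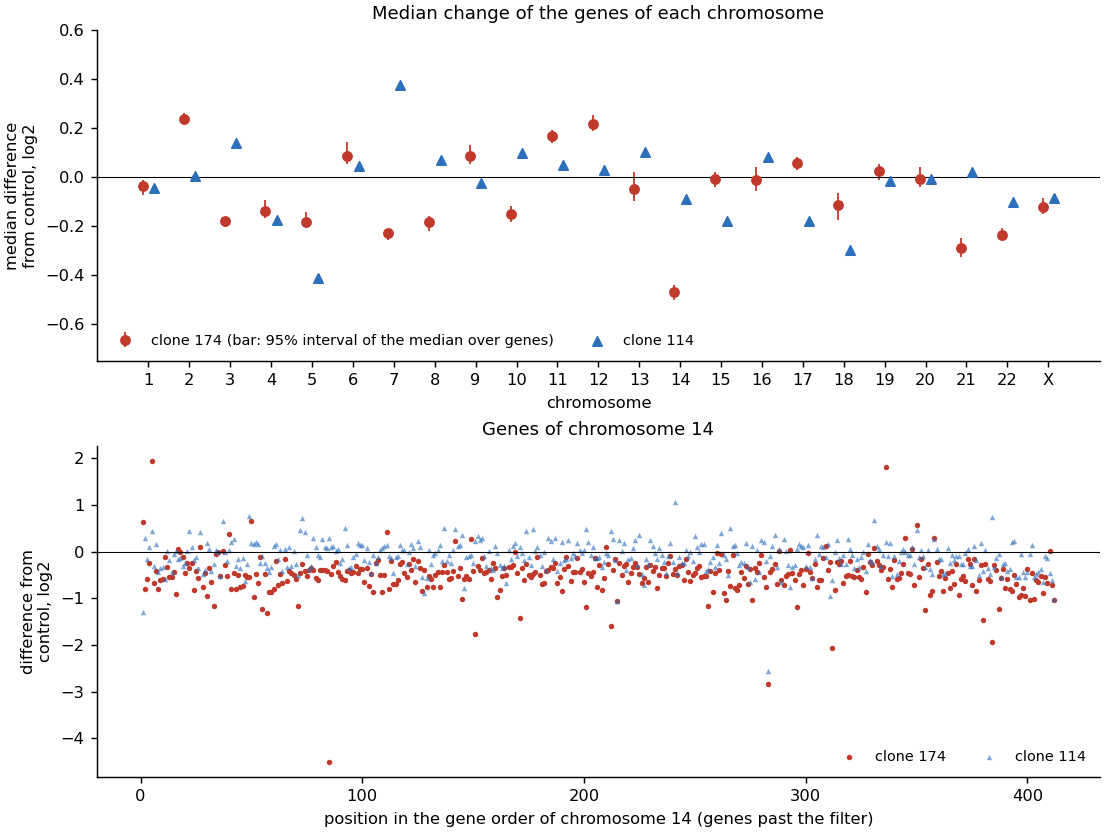
The upper panel gives the median change of each chromosome for clone 174, with its 95% binomial interval over genes, and for clone 114; the lower panel gives each gene of chromosome 14 in RefSeq order for both clones. Chromosome 14 has the lowest median of clone 174, -0.47, and its genes lie below 0 along the whole order, while clone 114 is at -0.09.

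Genes also lay in blocks, here stretches in which the running median of 15 neighbouring genes lay at least 0.3 from the median of all genes. Higher blocks held 3379 of the 12324 placed genes (27.4%) and lower blocks 1746 (14.2%), with the 412 genes of chromosome 14 among the lower. Lower blocks varied in GC content, against a median of 49.7% over all genes. The median was 64.0% from LOC100288069 to GABRD on chromosome 1 and 62.9% from TRAPPC9 to ZNF16 on chromosome 8. It was 44.6% from CCDC127 to TRAPPC13 on chromosome 5. The part of GC content in single blocks was not tested. The counts of genes in blocks depend on the limit. Genes in higher chromosome blocks numbered 1541 at a limit of 0.4. Genes in lower chromosome blocks numbered 911 at 0.4 and 4164 at 0.2. On chromosome 1 the 330 genes from NIT1 to AHCTF1, towards the end of the long arm, had a median change of 0.33 in clone 174 and 0.08 in clone 114, and 298 of them lay above the control. ITPKB, a kinase gene of inositol phosphates in that block, was at 9.20 FPKM in clone 174, 0.341 in clone 114 and 0.856 in the control. On chromosome 5 the 137 genes from CCDC127 to TRAPPC13 had median changes of -0.46 in clone 174 and -0.60 in clone 114, so both clones lay below the control there. BASP1, a membrane protein gene known from growth cones, was at 95.4 FPKM in clone 174, 101 in clone 114 and 204 in the control. On chromosome 16 the 97 genes from TGFB1I1 to PLEKHG4, which hold CDH8 and CDH11, had median changes of 0.36 in clone 174 and 0.34 in clone 114. On chromosome 6 the 132 genes from FOXF2 to PPP1R11, which hold the histone cluster, had a median change of 0.33 in clone 174, against 0.00 in clone 114, with 15 at least 2-fold higher.

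On the X chromosome, 54 genes from HCCS to GK on the short arm had a median change of -0.40 in clone 174, against 0.43 in clone 114, with 46 below the control and 9 at least 2-fold lower in clone 174. Besides MAP7D2, PIR, the gene of a nuclear protein, was at 4.53 FPKM in clone 174, 19.5 in clone 114 and 16.2 in the control. ACOT9, a mitochondrial thioesterase gene, was at 20.7 FPKM in clone 174, 101 in clone 114 and 66.2 in the control. Towards the tip of the short arm several genes stood high instead. CLCN4, a chloride transporter gene, was at 12.5 FPKM in clone 174, 2.49 in clone 114 and 2.30 in the control. PRKX, a kinase gene, was at 5.34 FPKM in clone 174, listed at 0 in clone 114 and at 0.303 in the control. On chromosome 7 the 58 genes from TRIM4 to DNAJC2 had a median of -0.38 in clone 174, against 0.44 in clone 114.

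Few centrosome genes, which the title of the study concerns, differed by 1.5-fold, as did few genes in all (5.92% higher and 7.26% lower). Of 30 genes of centriole duplication and elongation, 1 was at least 1.5-fold higher and 1 lower, with a median change of 0.02 in clone 174 and -0.01 in clone 114. POC1A, which encodes a centriole component, was at 12.9 FPKM in clone 174, 18.7 in clone 114 and 20.4 in the control, and POC1B was at 11.97 FPKM in clone 174, 7.51 in clone 114 and 7.61 in the control. PLK4, whose kinase sets off the making of new centrioles, was at 9.46 FPKM in clone 174, 10.6 in clone 114 and 12.8 in the control. Of 37 genes of the pericentriolar material, linker and appendages, 1 was at least 1.5-fold lower, FBF1, an appendage gene, at 4.92 FPKM in clone 174, 8.86 in clone 114 and 8.48 in the control. Of 48 mitotic genes 3 were at least 1.5-fold higher and 2 lower, and of 47 cilium genes 1 was lower, IFT43. The medians of these 4 lists lay between -0.06 and 0.02 in clone 174 and turned sign under another scaling. Of 23 partners of KANK1 at the cell cortex, 1 was at least 1.5-fold higher, PPFIA1, which encodes a liprin, at 27.5 FPKM in clone 174, 17.4 in clone 114 and 18.0 in the control. In the focal adhesion list PARVB, which encodes a parvin that links integrins to actin, was at 21.3 FPKM in clone 174, 9.42 in clone 114 and 3.70 in the control, and the median of 32 genes was -0.12.

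Several of the remaining lists had medians below the -0.05 of all genes in clone 174. Over all genes, 7.26% were at least 1.5-fold lower in clone 174 and 5.92% at least 1.5-fold higher. Cholesterol synthesis had a median of -0.34 in both clones, with 8 of 24 genes at least 1.5-fold lower and 0 higher in clone 174. Interferon-stimulated genes had -0.33 in clone 174 and -0.12 in clone 114, with 7 of 24 at least 1.5-fold lower and 2 higher in clone 174. The highest of them, the antiviral membrane protein gene IFITM3, was at 54.5 FPKM in clone 174, 35.2 in clone 114 and 21.5 in the control. Glycolysis genes had -0.38 in both clones, near the -0.36 of the common reference genes in clone 174. In the TGF-beta and BMP list, with a median of 0.19 over 38 genes, ID4, an inhibitor of helix-loop-helix factors that BMP signalling induces, was at 87.0 FPKM in clone 174, 52.8 in clone 114 and 32.1 in the control.

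**Figure D5:**
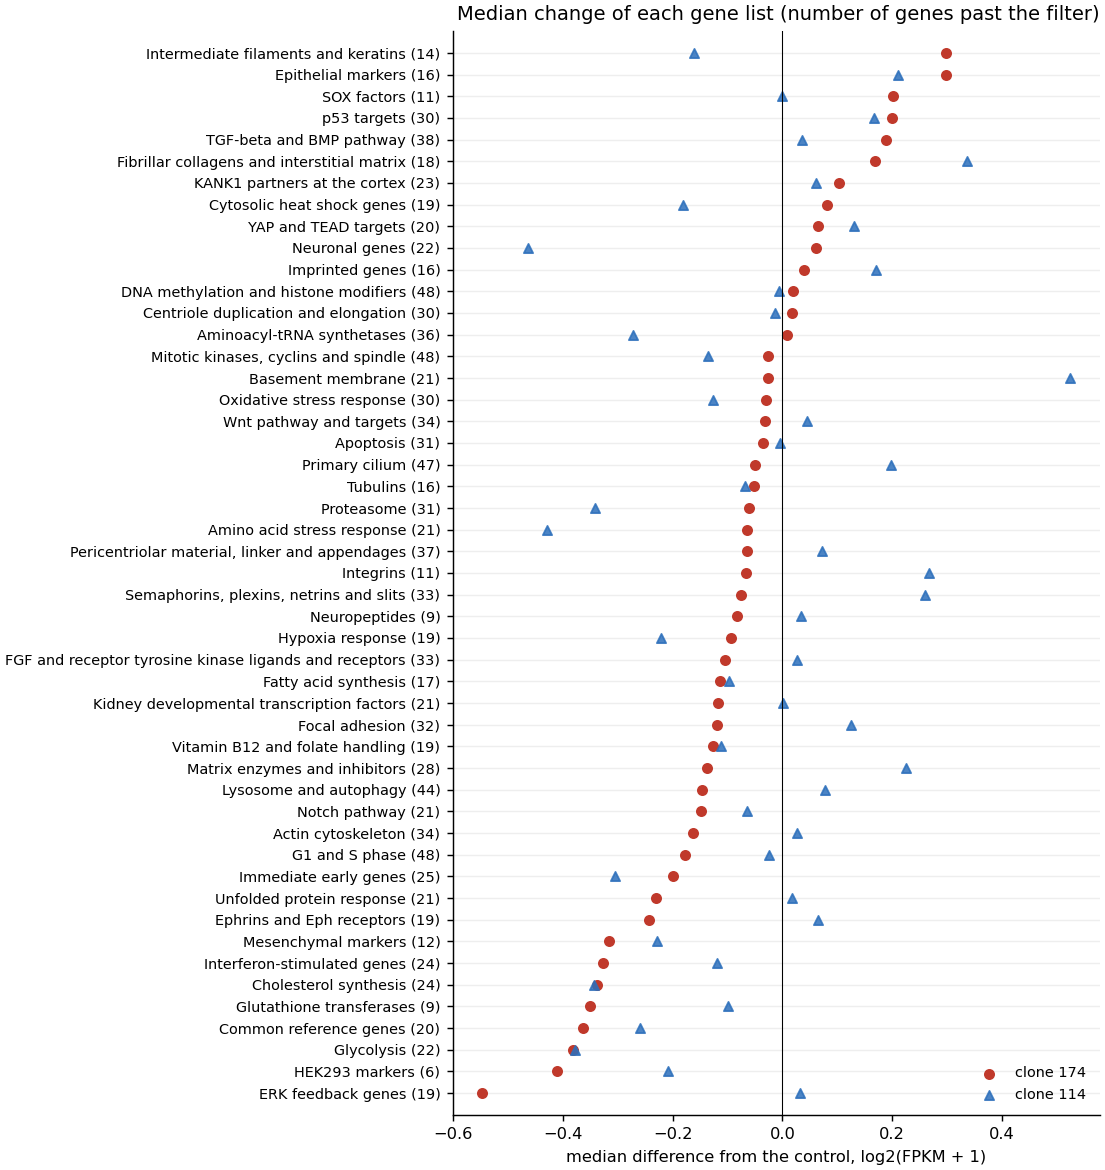
Each row is a gene list with at least 6 genes past the filter, with its median change on the log2(FPKM + 1) scale for clone 174 and clone 114. The ERK feedback list lies lowest in clone 174 at -0.55, where clone 114 is at 0.03, and the centriole list lies at 0.02.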

How the data were processed

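Poly(A) RNA of 3 cultures was sequenced in stranded libraries, 1 for each group. The authors deposited FPKM per gene symbol, and per the submitters' processing notes cutadapt 2.10, HISAT2 2.2.1 and Cuffdiff 2.2.1 were used with hg19. For the settings and annotation, the sources used here give nothing. Of 26237 rows, 28 with a date for a symbol were left out. Changes were computed as log2(FPKM + 1) in a clone minus the control, over genes that averaged 1 FPKM or more in clone 174 and the control, with Python 3.11.15, numpy 2.4.6 and pandas 2.3.3. The pseudocount of 1 understates changes of low genes. With 1 library in each group no test was made, and clone 114 and clone 174 share the control. "At least 2-fold" and "at least 1.5-fold" refer to this log2 scale. Intervals of medians are 95% binomial order-statistic intervals over genes, which cover the spread over genes only. The depth per library was estimated from the spacing of low FPKM values and limits the genes near 0 most.

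Genes were placed in the order of RefSeq GRCh38.p14, whereas the values come from hg19, so only the order is used and no gene coordinates are given. GC content came from GENCODE 29 transcripts and covered 95.1% of genes. Upstream sequences are the 250 bases before each RefSeq start. The edited alleles were not analysed here.

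Members and lists were chosen with earlier results of these data known. Named genes are KANK1 to KANK4, the 25 highest and 25 lowest changes without small RNA symbols, the 10 highest and 10 lowest among genes within 1.25-fold of the control in clone 114, up to 4 members of a list or family with the largest change, the 3 leading genes of a block, and 5 genes each way that were at 0 in clone 174 or the control. A gene of this selection is not reported here. Genes named outside this rule, the split of ZNF genes by chromosome and the count of list genes on chromosome 14 were chosen after their values were seen. Alternatives changed the pseudocount, the filter, the scaling, GC centring and the block settings. The calculations were tested on simulated data.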

Additional observations from a re-analysis of the deposited data

Results flagged for a closer look

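Of the 254 genes at least 2-fold higher in clone 174, 40 were also at least 2-fold higher in clone 114 and 11 lower. Of the 200 genes at least 2-fold lower in clone 174, 40 were also at least 2-fold lower in clone 114 and 11 higher. Over all genes, 1.42% were at least 2-fold higher and 1.48% lower in clone 114. Calls in the same direction were thus more frequent than opposite ones, and both clones share the control. The 6 genes described here are among those called in opposite directions. The difference between the clones was not tested because each clone has 1 library. SOX3 had a change of 3.386 in clone 174 and -2.191 in clone 114. TMEM47, which encodes a membrane protein of cell junctions, had 2.401 in clone 174 and -2.194 in clone 114, with 31.8 FPKM in clone 174, 0.356 in clone 114 and 5.21 in the control. MGST1 had 2.362 in clone 174 and -2.293 in clone 114. COL2A1 went the opposite way, with -4.086 in clone 174 and 2.407 in clone 114. MAP7D2 had -2.577 in clone 174 and 1.699 in clone 114. WFDC2, which encodes a secreted protein of epithelia, had -2.454 in clone 174 and 1.513 in clone 114, with 0.155 FPKM in clone 174, 17.1 in clone 114 and 5.33 in the control.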

How the results depend on the processing

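Counts of genes depended on the pseudocount and the filter. The 254 genes at least 2-fold higher in clone 174 became 418 with a pseudocount of 0.1, 58 with a pseudocount of 5 and 99 with a mean of at least 5 FPKM, and the 200 lower genes became 330, 59 and 100. The 35 ZNF genes of chromosome 19 became 7 with a pseudocount of 5 and 12 with a mean of at least 5 FPKM. Their median of 0.34 was 0.20 with a pseudocount of 5, 0.43 with equal sums and 0.42 with median centring. The chromosome 14 median of -0.47 was -0.52 with a pseudocount of 0.1, -0.35 with a pseudocount of 5, -0.38 with equal sums, -0.39 with median centring, -0.44 with quantile normalization and -0.43 with GC centring. Genes in higher chromosome blocks numbered 1541 in place of 3379 with a limit of 0.4. Genes in lower chromosome blocks numbered 4164 with a limit of 0.2 and 911 with a limit of 0.4 in place of 1746. The chromosome 1 median of -0.037 turned to 0.0535 with equal sums, 0.0394 with median centring and 0.00442 with GC centring. Over 83 lists, families and chromosomes, 21 medians changed sign under at least 1 scaling, and chromosome 1 was the only 1 of them whose 95% interval over genes did not hold 0 as deposited. GC centring and the ZNF split were added after the data were seen. No paired analysis was possible because each group has 1 library and no test was made. Libraries could not be left out, and at this depth genes near 0 are the least certain.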

Other observations

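Further genes were at or near 0 in clone 174, and those described here were chosen after their values were seen. CDO1, which encodes the enzyme that starts cysteine breakdown, was listed at 0 in clone 174, against 13.99 FPKM in clone 114 and 8.92 in the control. FUOM, which encodes an enzyme of fucose metabolism, was listed at 0 in clone 174, against 8.85 FPKM in clone 114 and 7.19 in the control. FAM213A, the gene of a peroxiredoxin-like protein, was at 0.204 FPKM in clone 174, 36.8 in clone 114 and 19.6 in the control. All 3 were expressed in both other libraries. GUCY1B3, which encodes a subunit of the nitric oxide receptor, was at 1.92 FPKM in clone 174, 11.9 in clone 114 and 10.8 in the control, and the partner subunit gene GUCY1A3 was at 0.937 FPKM in clone 174, 3.21 in clone 114 and 2.55 in the control. BEX1, a small brain-expressed gene of the X chromosome, was at 5.42 FPKM in clone 174, 29.2 in clone 114 and 32.4 in the control.

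Of 35 small RNA symbols past the filter, 8 were at least 2-fold higher and 10 lower in clone 174. Of all genes, 2.04% were that much higher and 1.6% lower. The 35 include long host genes such as MIR17HG and MIR210HG, and no host gene of this kind differed by 2-fold. Small nucleolar RNAs lack a poly(A) tail and are short, so their FPKM rest on few fragments. SNORA70 was at 50.4 FPKM in clone 174 and 49.6 in clone 114 and listed at 0 in the control, and SCARNA22 was listed at 0 in clone 174 and clone 114 and at 32.2 FPKM in the control.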
